A study of Homo sapiens
Mus musculus with 2 samples.

Results

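Jurkat-like human cells were examined in 2 Drop-seq libraries made from an equal mixture of 4 lymphocyte lines, the human T cell lines Jurkat and TALL-104 and the mouse lines EL4 (T cell) and IVA12 (B cell). One library was loaded at 150 and the other at 300 cells per µl, here called the 150 library and the 300 library, with no other treatment named in the labels. Each concentration thus had 1 library, and no difference between concentrations could be tested. Members were barcodes with at least 1000 UMIs, of which at least 90% lay on human genes. UMIs, or unique molecular identifiers, are short random tags that let copies of 1 captured transcript be counted a single time. This rule kept 87 of 2000 barcodes in the 150 library and 318 of 4000 in the 300 library, or 405 of 6000 in all.

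Jurkat is an established line from a T cell acute lymphoblastic leukaemia. Its cells carry a T cell receptor with the CD3 chains, of which CD3D is one. TAL1, a basic helix-loop-helix transcription factor that is normally silent in T cells, is switched on in many such leukaemias. ITM2A encodes a membrane protein known from developing T cells. TALL-104 is a cytotoxic line that is grown with interleukin 2. Cytotoxic lymphocytes express CCL5, a chemokine that attracts leukocytes, NKG7, a membrane protein of cytotoxic granules, and GZMB, a granule protease that triggers death of the target cell. These 6 genes are the only ones given by symbol, since the tables list genes by Ensembl identifier and the name table at hand carried no such identifiers. They are 3 of 6 markers listed for Jurkat and 3 of 15 listed for TALL-104, and the remaining markers were not analysed here.

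The rule set the depth and the human share of the members, which are therefore a description. UMIs per cell ran from 1060 to 22114 in the 150 library and from 1001 to 23178 in the 300 library, with medians of 6383 and 3714. The members held 616525 and 1325144 human UMIs, over 11595 and 13023 human genes. Mouse UMIs made up 1.69% and 3.64% of their sums. At the UMI limit, the shallowest members held 1060 and 1094 UMIs in the 150 library and 1001 and 1005 in the 300 library, and the deepest barcodes of that purity under it held 962 and 974. At the purity limit, the least pure members were 90.1% and 90.05% human, and the nearest barcodes under it 89.95% and 89.97%. The tables shared 1 barcode, which was not a member in either. No doublet caller was run, and pairs of human cells in 1 droplet would not be seen by the rule.

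**Figure D1:**
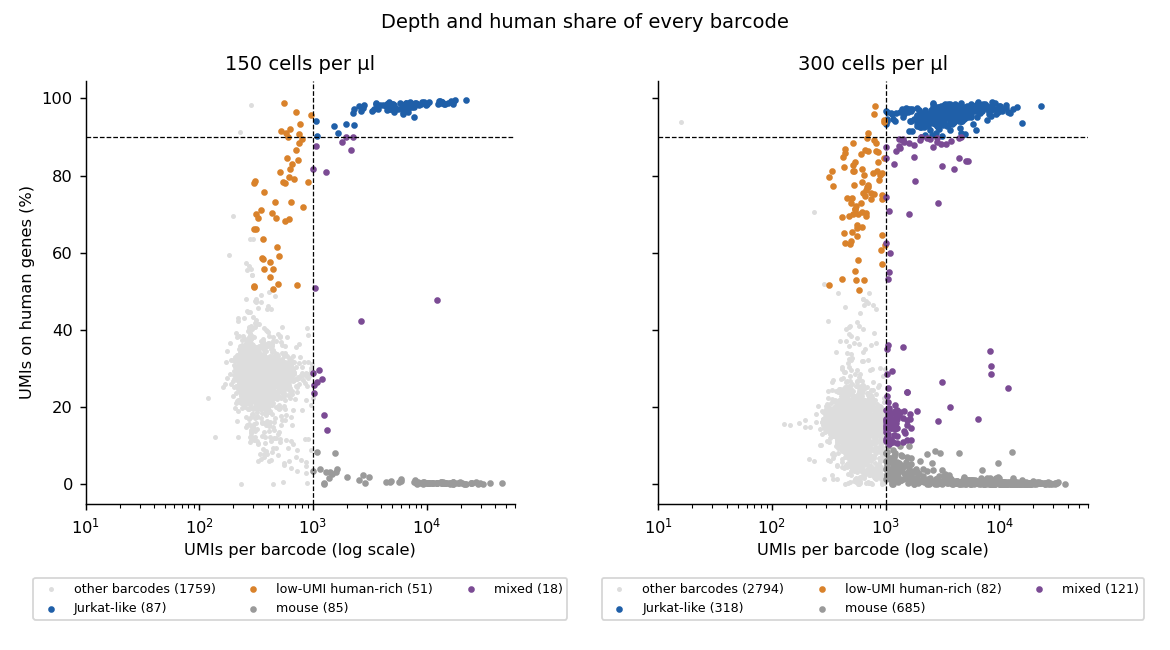
Each point is a barcode, with its UMIs on a log axis and the percentage of them on human genes, in the 150 library (left) and in the 300 library (right). Dashed lines mark 1000 UMIs and 90% human. The 87 and 318 Jurkat-like cells fill the upper right corner, apart from the 51 and 82 low-UMI human-rich barcodes to their left.

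The members carried the Jurkat-like genes and next to none of the TALL-104 genes. CD3D was detected in 85 of 87 cells in the 150 library (97.7%) and in 299 of 318 in the 300 library (94.03%). Its summed level was 1324 CPM (UMIs of the gene scaled to 1e6 human UMIs) from 816 UMIs, with an exact Poisson 95% interval of 1234 to 1418, and 1267 CPM from 1679 UMIs (1207 to 1329). This placed CD3D at rank 103 of 11595 and rank 98 of 13023 detected genes. Since the UMIs tag transcript ends, levels of different genes are compared without division by length.

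ITM2A was detected in 82 of 87 cells (94.3%) and 255 of 318 cells (80.2%). Its level was 816 CPM from 503 UMIs (746 to 890) in the 150 library and 596 CPM from 790 UMIs (555 to 639) in the 300 library. The gene ranked 173 and 233 among the detected genes. TAL1 was far lower, at 32.4 CPM from 20 UMIs (19.8 to 50.1) and 58.9 CPM from 78 UMIs (46.5 to 73.5). A UMI of it was found in 17 of 87 and 62 of 318 cells, which is 19.5% in each library, and no cell held more than 4. Per cell, the median UMI count of CD3D was 8 and 5, and that of ITM2A 4 and 2, in the 150 and 300 libraries. Intervals of counts and shares cover counting error only.

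The TALL-104 genes were near the limit of detection in the same cells. GZMB had no UMI in 87 and 318 cells, which by the limit of 3 cells allows shares of cells with a UMI of up to 3.45% and 0.943%, and sets no limit on cells that express the gene below detection. NKG7 had none in 87 cells and 5 UMIs in 5 of 318 cells, a level of 3.77 CPM. CCL5 had 7 UMIs in 2 of 87 cells (11.4 CPM) and 1 UMI in 1 of 318 cells (0.755 CPM). A UMI of any of the 3 genes was thus present in 2 of 87 and 6 of 318 members, and in 7 of these 8 cells it was a single UMI beside at least 2 UMIs of CD3D.

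Mouse cells, which should lack these human transcripts, gave a background level, whose source was not tested. CD3D had a UMI in 3 of 85 and 23 of 685 mouse cells, ITM2A in 4 and 13, and CCL5 in 2 and 4. NKG7 had a UMI in 0 and 1 of them and GZMB in none. Their median depths were 12164 and 7211 UMIs. The shares of members with CD3D and ITM2A lay far above this background. The rule picked members for human UMIs, however, and the mouse cells held only 4556 and 31425 human UMIs in all. The shares were thus not taken at 1 human depth, and their gap does not show enrichment of these genes. Per human UMI, ITM2A stood at 878 and 446 CPM in mouse cells and at 816 and 596 CPM in the members. For CD3D these levels were 658 and 796 CPM against 1324 and 1267 CPM. The shares of members with CCL5, at 2.299% and 0.314%, did not exceed the 2.35% and 0.584% of the mouse cells. The source of the CCL5 UMIs in the members was not tested. NKG7 was in 1.57% of members in the 300 library (95% binomial interval 0.512% to 3.63%) and in 0.146% of mouse cells (0.00370% to 0.811%).

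One member stood apart. The shallowest cell in the 150 library, with 1060 UMIs and 94.2% human, held 6 of the 7 CCL5 UMIs of that library, 1 UMI of CD3D and none of ITM2A or TAL1. With members of at least 2000 UMIs, the summed level of CCL5, NKG7 and GZMB in the 150 library was 1.64 CPM in place of 11.4 CPM. Just outside the rule, the barcode with the second highest human share under the limit, at 89.94% and 1959 UMIs, held 25 UMIs of CCL5, 4 of NKG7, 1 of ITM2A and none of CD3D.

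The 3 Jurkat-like genes were found together mostly in the deeper cells. In the 150 library, 63 cells had UMIs of 2 of the 3 genes (median 6391 UMIs), 17 had all 3 (median 9006) and 7 had 1 (median 1668). In the other library 204 cells had 2 (median 3701), 51 had all 3 (median 6425), 55 had 1 (median 2797) and 8 had none (median 1187). Those without CD3D and ITM2A were 0 and 10 cells, the latter with a median of 1320 UMIs. Detection of the genes in a cell therefore moved with its depth.

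The closest population by species was that of low-UMI human-rich barcodes, with at least 300 but fewer than 1000 UMIs, at least 50% of them human, which numbered 51 and 82 and held 20966 and 40234 human UMIs. The question was whether the members differed from them in more than depth. CCL5 stood at 1288 CPM from 27 UMIs and 3778 CPM from 152 UMIs in these barcodes, against 11.4 and 0.755 CPM in the members. By library, it was 113-fold higher in the low-UMI barcodes (95% interval 48.2 to 309) and 5006-fold higher (885 to 199021, from 1 UMI in the members). NKG7 stood at 191 CPM from 4 UMIs and 646 CPM from 26 UMIs, which is 39.2-fold above the level that 3 UMIs would give in the members of the 150 library (95% lower limit of the ratio 19.4-fold) and 171-fold higher (64.7 to 571) in the 300 library. GZMB had 4 UMIs in each library (191 and 99.4 CPM), which is 39.2-fold and 43.9-fold above the same floor of 3 UMIs per library (95% lower limits of the ratio 19.4-fold and 21.7-fold). The summed levels of all 3 genes in the low-UMI barcodes exceeded those in the members in both libraries, but not every such barcode carried them. A UMI of any of the 3 genes was found in 10 of 51 and 42 of 82 low-UMI barcodes, and a UMI of CD3D, ITM2A or TAL1 in 27 and 45 of them, with 9 and 18 holding both kinds.

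CD3D and ITM2A did not separate the classes. In the low-UMI barcodes CD3D stood at 1669 CPM from 35 UMIs and 1218 CPM from 49 UMIs, so the log2 ratio of members over low-UMI barcodes was -0.33 (95% interval -0.82 to 0.20) and 0.057 (-0.35 to 0.50). ITM2A stood at 477 CPM from 10 UMIs and 621 CPM from 25 UMIs, with log2 ratios of 0.77 (-0.12 to 1.84) and -0.060 (-0.63 to 0.58). TAL1 had no UMI there, but 3 UMIs would already correspond to 143 and 74.6 CPM, above its level in the members, so that a difference was not detectable at this depth. Among the human UMIs of mouse cells, CD3D stood at 658 and 796 CPM (3 and 25 UMIs). ITM2A stood at 878 and 446 CPM there (4 and 14 UMIs). How much of the low-UMI levels was such background was not tested.

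**Figure D2:**
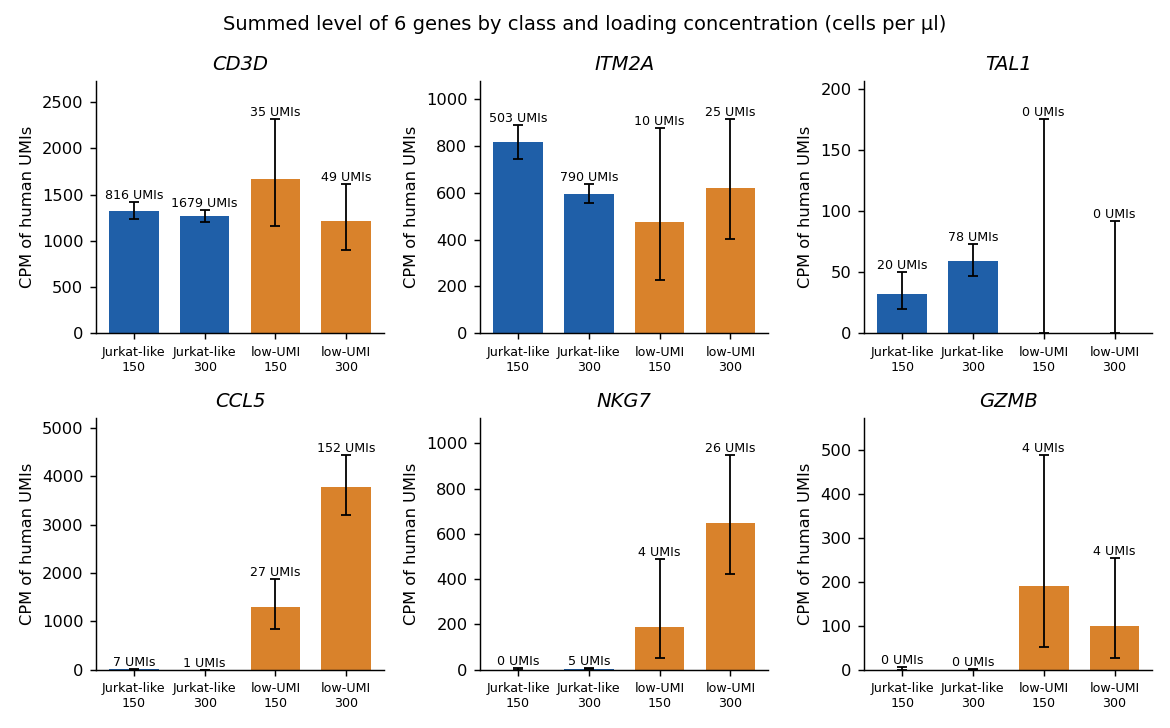
Bars give the summed level of each gene in CPM of human UMIs, with exact Poisson 95% intervals, for Jurkat-like cells (blue) and low-UMI human-rich barcodes (orange) in the 150 and 300 libraries. CD3D and ITM2A overlap between the classes, TAL1 has 0 UMIs in the low-UMI barcodes with intervals wider than its level in the members, and CCL5, NKG7 and GZMB stand almost only in the low-UMI barcodes.

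Across all human genes, edgeR's quasi-likelihood test on the 4 sums of UMIs (1 per class and library, with the library as a block) called 260 of 5745 genes at a Benjamini-Hochberg adjusted p below 0.05, or 4.53%. Of these, 108 were higher in the members (1.88%) and 152 in the low-UMI barcodes (2.65%), and 258 had the same direction in both libraries. Of the 3 TALL-104 genes, 2 were called: CCL5 was 557-fold lower in the members (log2 fold change -9.12, edgeR adjusted p = 4.57e-114) and NKG7 167-fold lower (log2 fold change -7.38, edgeR adjusted p = 9.84e-36). CCL5 and NKG7 passed the filter only through the low-UMI sums, so with it they could be called in this direction alone. Without the filter both were also called as lower in the members (edgeR adjusted p = 9.35e-107 and 1.04e-14). GZMB had too few UMIs to pass the filter, and without the filter it was called as lower in the members (edgeR adjusted p = 0.021). None of the 3 Jurkat-like genes was called, with edgeR adjusted p = 0.965 for CD3D, 0.538 for ITM2A and 0.287 for TAL1. Without members under 2000 UMIs, the fold of CCL5 was 2040, since the 1060-UMI cell was left out. The libraries hold the same lines. With 4 sums and the library as a block, these p-values lean on an estimate of variation shared across genes. They do not measure how far the difference of a single gene varied between the 2 libraries, nor between cultures. The fold of CCL5 was 113 in the 150 library and 5006 in the 300 library, and its DESeq2 adjusted p was 3.47e-04.

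Of the genes without symbols, ENSG00000112759 and ENSG00000108384 ranked first among those higher in the members, with 48 and 71 UMIs in the 150 library, 167 and 129 in the 300 library and none in the low-UMI barcodes. Their levels in the members were 77.9 and 115 CPM in the 150 library and 126 and 97.3 CPM in the 300 library. In the low-UMI barcodes 3 UMIs would correspond to 143 and 74.6 CPM, so the 150 library alone could not show these differences. ENSG00000107099 and ENSG00000143184 ranked first in the other direction, with none in the members and 3 and 6 UMIs, then 16 and 13, in the low-UMI barcodes. Each of these genes passed the filter only through the class that held its UMIs, and could be called in that direction alone. The median absolute log2 fold change of the called genes was 2.28. Mouse UMIs made up 23.6% and 24.1% of the low-UMI sums against 1.69% and 3.64% of the members. Against low-UMI barcodes at least 75% human, 185 of 5771 genes were called, 152 of them among the 260. With DESeq2, 60 of 5745 genes were called, 0 of them higher in the members.

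To read the low-UMI profile cell by cell without reusing the library it was drawn from, genes at least 4-fold higher in the low-UMI barcodes of 1 library (with at least 10 UMIs there) were summed in the other. The 10 genes picked in the 150 library took 0.0714% of the human UMIs of the members in the 300 library and 1.24% of those of the low-UMI barcodes. Among the 318 members the highest share was 0.333%, below the median of 0.737% over the low-UMI barcodes. The 77 genes picked in the 300 library took 0.817% and 3.66% in the 150 library, where medians were 0.723% and 0.914% and 24 members reached the latter.

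Genes picked the opposite way, at least 4-fold higher in the members (with at least 100 UMIs there), were few and separated the classes less. In either direction a gene also had to lie 4-fold above the level of 3 UMIs in the opposite sum. That level was 143 and 74.6 CPM in the low-UMI sums, but 4.87 and 2.26 CPM in the members. The numbers of genes picked each way can therefore not be compared. The 6 genes picked in the 300 library took 0.214% of the human UMIs of the members and 0.186% of those of the low-UMI barcodes (95% interval 0.132% to 0.254%) in the 150 library. The 1 gene picked in the 150 library took 0.0653% and 0.0323% (0.0172% to 0.0552%) in the 300 library.

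The 1060-UMI cell was the extreme member for the low-UMI genes, with 9.11% of its human UMIs on the 77 genes. It had 91 UMIs over 36 of them, and 85 of these UMIs were on genes other than CCL5 and NKG7. The next highest member, at 4.16%, was the second shallowest of that library (1094 UMIs, 90.1% human), with 41 UMIs on 5 of the genes and no CD3D, CCL5 or NKG7. The following one stood at 1.71%. The other 85 members in the 150 library thus lay at or below 1.71%.

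**Figure D3:**
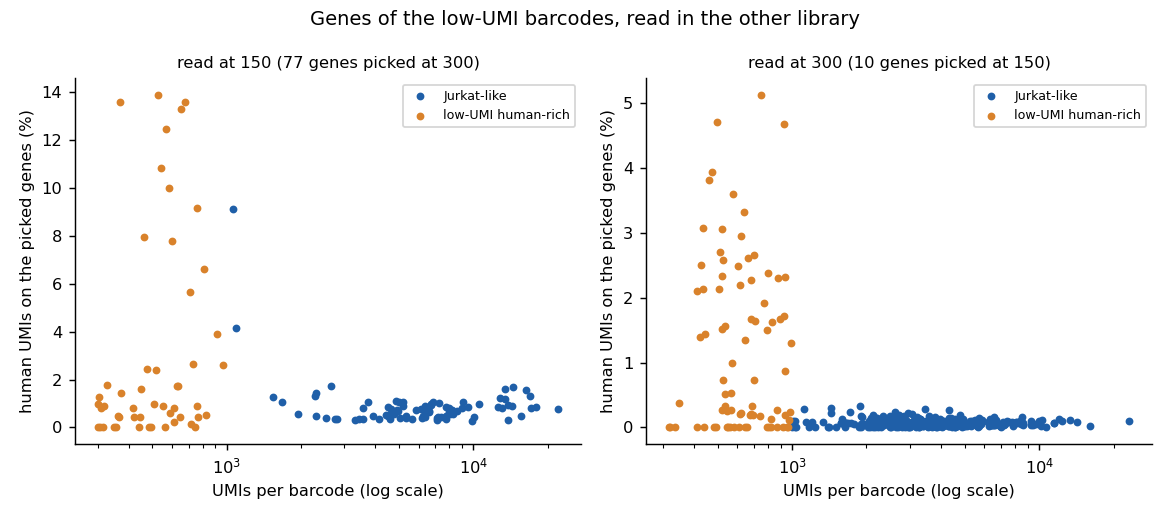
Each point is a barcode, with its UMIs on a log axis and the percentage of its human UMIs on genes picked from the low-UMI barcodes of the other library, for Jurkat-like cells (blue) and low-UMI human-rich barcodes (orange). Read in the 150 library (left), members at 1060 and 1094 UMIs reach 9.11% and 4.16%, and read in the 300 library (right), no member exceeds 0.333%.

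The UMIs of the members were spread over many genes. The 10 most abundant genes took 4.92% and 4.49% of human UMIs in the 150 and 300 libraries, the top 100 took 25.9% and 23.7% and the top 1000 took 62.3% and 58.8%. ENSG00000198804 led in both libraries, with 6704 and 5435 CPM, and ENSG00000137154 came second in both, with 5541 and 5130 CPM. The libraries shared 89 of their 100 most abundant genes. After each cell was thinned to 2000 human UMIs, which left out 5 of 87 and 45 of 318 cells, 119 and 94 genes were found in at least 90% of cells, and 3444 and 3800 in at least 10%. Genes per thinned cell ranged from 1125 to 1328 (median 1235) and from 1166 to 1419 (median 1289).

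Variation among the members was measured in the same thinned cells as the variance of Pearson residuals per gene, which is near 1 for a gene that varies by sampling alone. ITM2A was among the most variable genes in both libraries, whereas CD3D ranked far lower. The residual variance of ITM2A was 1.78 in the 150 library, rank 19 of 3161 genes, and 1.68 in the 300 library, rank 26. That of CD3D was 1.10 (rank 834) and 1.06 (rank 1286), beside medians over all genes of 1.01 and 1.03. TAL1 was in too few thinned cells to be included.

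The per-cell counts show the same contrast. The variance of ITM2A over its mean was 1.81 and 1.70, and that of CD3D 1.13 and 1.09. ITM2A was absent from 24.4% of 82 thinned cells (95% binomial interval 15.6% to 35.1%) and 39.9% of 273 (34.1% to 46.0%), where a Poisson distribution of the same mean gives 20.2% and 29.1%. At least 5 UMIs of it were found in 9 of 82 cells (10.98%, interval 5.14% to 19.8%, Poisson 2.35%) and in 11 of 273 (4.03%, interval 2.03% to 7.10%, Poisson 0.868%). CD3D reached 5 UMIs in 12.2% and 15.02% of cells, beside 12.6% and 11.8% for Poisson. Cells rich in ITM2A thus exceeded the Poisson share beyond counting error in both libraries, and cells without it in the 300 library, while in the 150 library the interval for cells without it included the Poisson share.

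**Figure D4:**
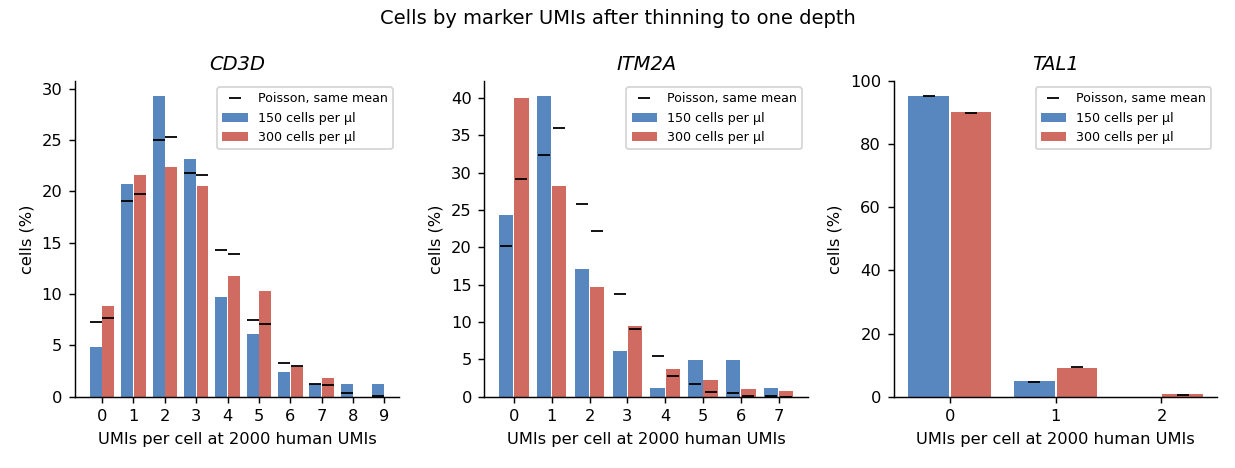
Bars give the percentage of Jurkat-like cells by UMIs of CD3D, ITM2A and TAL1 after thinning to 2000 human UMIs, for 82 cells in the 150 library (blue) and 273 cells in the 300 library (red), and black dashes give a Poisson distribution of the same mean. ITM2A exceeds the dashes at 0 and at 5 or more UMIs in both libraries, while TAL1 follows them. It also exceeds them at 1 UMI in the 150 library (ITM2A, 40.2% against 32.3%) and at 3 and 4 UMIs in the 300 library.

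High variance was partly shared by the libraries. Of the 50 most variable genes in each, 22 were in both (44.0% of each list), where the list held 1.58% of the 3161 genes. Of the 20 most variable genes in the 300 library, 15 were in the top 50 in the 150 library, with a median rank of 11. ENSG00000124575, the most variable in the 300 library, had residual variances of 4.55 and 4.14 in the 150 and 300 libraries, and ENSG00000251562 had 4.66 and 3.95. Residual variance exceeded 1.5 for 67 genes in the 150 library and 47 in the 300 library. It did so in both for 23 genes, ITM2A among them. Over all 3161 genes, the Spearman correlation of residual variance between the libraries was 0.11.

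**Figure D5:**
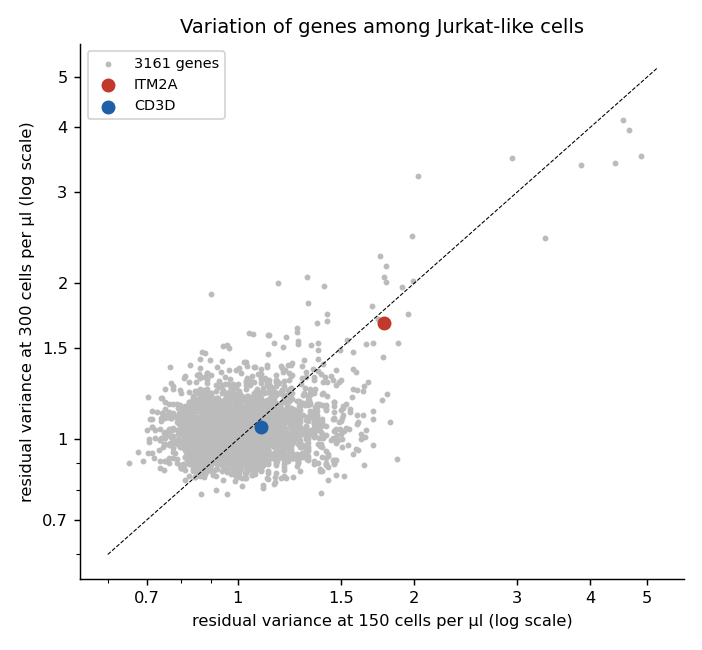
Each point is a gene, with its residual variance among thinned Jurkat-like cells in the 150 library (horizontal) and in the 300 library (vertical), both on log axes, and the dashed line marks equality. Most of the 3161 genes lie near 1 in both libraries, as does CD3D, and ITM2A lies with the genes that are high in both.

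Few genes were called between deep and shallow members. The deepest tertile (29 and 106 cells) was compared with the shallowest tertile of the same library by edgeR's quasi-likelihood test, which called 8 of 5125 genes (0.156%) at an adjusted p below 0.05. Of these, 7 were higher in the deep cells (0.137%) and 1 in the shallow ones (0.0195%). ENSG00000175063 had the largest change among those higher in the deep cells, a log2 fold change of 1.28 (edgeR adjusted p = 3.49e-04), from 6 and 39 UMIs in the shallow tertiles to 130 and 223 in the deep tertiles. ENSG00000083799 was the 1 gene higher in the shallow cells (log2 fold change -2.32, edgeR adjusted p = 0.0345). No gene was called by DESeq2 or without the library block. At an unadjusted p below 0.05 the edgeR test had 318 of the 5125 genes, where a share of 0.05 would fall there with no difference at all.

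The Jurkat-like markers were not among the called genes. CD3D stood at 1124 CPM in the shallowest and 1351 CPM in the deepest tertile in the 150 library, and at 1223 and 1247 CPM in the other library (edgeR adjusted p = 0.974). ITM2A stood at 923 and 847 CPM, then at 726 and 561 CPM (log2 fold change -0.24, edgeR adjusted p = 0.924). In the 300 library its log2 ratio of deep over shallow was -0.37 (95% interval -0.64 to -0.10). TAL1 stood at 42.4 and 37.6 CPM from 4 and 13 UMIs, then at 40.3 and 73.6 CPM from 9 and 53 UMIs (edgeR adjusted p = 0.924). The share of mouse UMIs was lower in deeper cells, at 2.67% in the shallowest tertile and 1.22% in the deepest in the 150 library and at 4.92% and 3.09% in the 300 library. Among members at least 95% human, the log2 fold change of deep over shallow was -0.072 for ITM2A and 0.076 for CD3D (0.15 among all members), and neither was called.

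Between the concentrations, few genes of the members lay beyond 2-fold. Of 3845 genes with at least 100 UMIs over both libraries, 68 (1.77%) had a ratio of levels beyond 2-fold. Of these, 45 were higher in the 300 library (1.17%) and 23 lower (0.598%). The ratios themselves were counted, whatever their 95% counting intervals. These counts describe 2 libraries and are no count of genes that the concentration changed. With TMM scaling, which moved all log2 ratios down by 0.12, the split was 26 higher and 51 lower, so that the direction of the balance depended on the scaling. CD3D had a log2 ratio of the 300 over the 150 library of -0.06 (-0.18 to 0.06), and that of ITM2A was -0.45 (-0.62 to -0.29), a 0.731-fold level, with 77.7% of genes changing less. After thinning to 1 depth, ITM2A was found in 75.6% of cells in the 150 library (95% binomial interval 64.9% to 84.4%) and 60.1% in the 300 library (54.0% to 65.9%), and CD3D in 95.1% and 91.2%. TAL1 had a log2 ratio of 0.86 (0.14 to 1.65) from 98 UMIs, under the minimum for this comparison, and thinned shares of 4.88% and 9.89%. With 1 library per concentration, the concentration and the library cannot be told apart.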

How the data were processed

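UMI counts, raw whole numbers per gene and barcode, were deposited by the authors as a table for each library. Per the study's methods, the reads, downsampled by seqtk, went through Drop-seq tools and were mapped by STAR (2.4.2a in the submitters' notes) to the joint hg19 and mm10 reference of Cell Ranger (1.2.0). Whether the deposited counts came from downsampled reads is not given in the sources used here. The members and gene lists were chosen with earlier results of these data known.

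Only human rows were analysed, with CPM taken over the human UMIs of a class. Of 14519 human identifiers, 6 were named, from pairs of symbol and identifier supplied with the rule for the members. The mitochondrial, B cell and other marker lists were not analysed here. Sums per class and library were tested with edgeR 4.0.16 (R 4.3.3; library as a block, TMM, filterByExpr, Benjamini-Hochberg) after tests on simulated data, with DESeq2 1.42.0 as an alternative. Python 3.11.15, numpy and scipy were used for the rest. Intervals at 95% are exact Poisson for counts, Clopper-Pearson for shares and conditional binomial for ratios. Residuals were taken with an overdispersion parameter of 100, over genes in at least 10 thinned cells of each library.

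Named genes were the list members, the most abundant and most variable, and those with the largest change among called genes whose direction was shared by the libraries and whose level in the higher class was 50 CPM or more. Genes without symbols are limited to 2 per direction.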

Additional observations from a re-analysis of the deposited data

Results flagged for a closer look

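In 3 results the libraries pointed opposite ways, and the difference between the libraries was not tested. For members over low-UMI human-rich barcodes, the log2 ratio of CD3D was -0.33 in the 150 library and 0.057 in the 300 library, and that of ITM2A was 0.77 and -0.060, in that order. For the deepest over the shallowest tertile of the members, the log2 ratio of TAL1 was -0.17 (95% interval -1.87 to 1.90) in the 150 library and 0.87 (-0.16 to 2.07) in the 300 library. All 6 intervals include 0.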

How the results depend on the processing

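CCL5 and NKG7 stayed lower in the members, and past the threshold, in every fit across all genes that was run. The genes called between members and low-UMI barcodes were 260 of 5745. Of the same 5745, 60 were called with DESeq2 (0 higher and 60 lower in the members) and 132 without the library block (9 higher, 123 lower). Without the filter 245 of 13863 genes were higher in the members, beside 108 of 5745 in the main fit. These counts have different bases, so the larger count is no larger share in itself. Against low-UMI barcodes at least 75% human, 98 of 5771 were lower in the members, beside 152 of 5745. Between the tertiles (8 of 5125 genes, 7 higher and 1 lower in the deep cells), 5 were called with RLE size factors (0 lower). With DESeq2 and without the block 0 were called. Without the filter 7 of 13061 were called (0 lower), and at 95% purity 4 of 4759 (2 higher, 2 lower). Between concentrations, the 1.77% beyond 2-fold became 3.40% at a minimum of 50 UMIs, 1.11% at 200 and 2.94% with cells weighted equally, and the share of these that were higher in the 300 library went from 66.2% to 33.8% with TMM and 26.1% at 200 UMIs. The summed level of CCL5, NKG7 and GZMB in the 150 library (11.4 CPM) was 1.64 CPM from 2000 UMIs, 1.65 CPM at 95% purity and 70.8 CPM as a mean over cells, where the 1060-UMI cell weighs most. By single library, the log2 fold change against the low-UMI barcodes ranged from -0.33 to 0.057 for CD3D, from -0.060 to 0.77 for ITM2A and from -12.29 to -6.83 for CCL5, and that of TAL1 between the tertiles from -0.17 to 0.87. Apart from the 1060-UMI cell, the cause was not tested. The members of at least 2000 UMIs were chosen in that comparison after seeing the data. Leaving out mitochondrially encoded genes was not run. GZMB was called in the fit without the filter (edgeR adjusted p = 0.021). Depth limited TAL1 and GZMB, with 0 and 4 UMIs per library in the low-UMI barcodes.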
